A study of Homo sapiens with 9 samples.

Results

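The SHISA family genes *SHISA2*, *SHISA3*, *SHISA4*, *SHISA5* and *SHISA9* were followed across the 3 conditions of an RNA-seq experiment on MDA-MB-231 cells, a line derived from human breast cancer. These 5 members were found among 60664 genes listed in the count tables by matching Ensembl identifiers to gene symbols, and 4 of them held enough counts to enter the fit over 18264 genes. The family was chosen by readout in these very libraries. *SHISA2* was taken to have drawn attention through its level at high viscosity, and *SHISA3* through its level in *TRPV4* knockdown cells. Values of *SHISA2* and *SHISA3* are therefore given as a description without a test in every comparison, since the comparisons share samples. *SHISA4* and *SHISA5* were taken as members by gene family name and were tested with edgeR. As the family was proposed with results of these data known, their p-values are given beside the share of all genes called.

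All cells had been kept for 6 days in medium of defined viscosity before RNA was taken. Scramble control (SC) cells, which carry a non-targeting hairpin, were grown at 0.77 cP (3 samples) or at 8 cP (3 samples), and cells with a hairpin against *TRPV4* (shTRPV4) were grown at 8 cP (3 samples). They are called low-viscosity SC, high-viscosity SC and shTRPV4 cells. The medium was thickened with methylcellulose, and the centipoise (cP) is the unit of viscosity. Hairpins were introduced stably with a lentiviral vector and puromycin selection, so each of the groups holds a selected population, and shTRPV4 cells at 0.77 cP were not analysed here. The effect of the hairpin can thus be read at 8 cP only, and the comparison of shTRPV4 with low-viscosity SC cells changes hairpin and viscosity together. By the paper's methods, all shTRPV4 cells used here carried the same hairpin sequence. Loss of *TRPV4*, other effects of this hairpin and differences between selected populations cannot be told apart. The paper describes its data in general as at least 3 independent biological repeats unless stated otherwise. Its RNA-seq methods do not say whether the samples of a group came from separate cultures, so p-values measure the spread between these samples.

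SHISA proteins are small membrane proteins that cross the membrane once and carry a cysteine-rich domain on the luminal or outer side. SHISA2 and SHISA3 are known for holding immature Frizzled and FGF receptors in the endoplasmic reticulum, which lowers the response of a cell to Wnt and FGF, and SHISA3 has also been linked to the breakdown of beta-catenin. SHISA5, also called Scotin, is an endoplasmic reticulum protein induced by p53 that can promote cell death, and SHISA9 (CKAMP44) is an auxiliary subunit of AMPA-type glutamate receptors in neurons.

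*SHISA2* (ENSG00000180730) lies at chr13:26044597-26052016 on the minus strand of GRCh38 and has 2 exons. *SHISA3* (ENSG00000178343) lies at chr4:42397488-42402487 on the plus strand, likewise with 2 exons. The 150 bases before the transcription start of each are printed because these genes differed most between conditions. They are from RefSeq (GRCh38.p14), written 5′ to 3′ on the strand of the gene, chr13:26052017-26052166 on the minus strand for *SHISA2* and chr4:42397338-42397487 on the plus strand for *SHISA3*, with a TATAA or a GGGCGG match in capitals.
SHISA2: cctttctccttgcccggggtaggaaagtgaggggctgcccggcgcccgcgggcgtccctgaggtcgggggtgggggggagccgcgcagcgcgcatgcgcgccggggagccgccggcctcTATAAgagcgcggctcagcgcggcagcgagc
SHISA3: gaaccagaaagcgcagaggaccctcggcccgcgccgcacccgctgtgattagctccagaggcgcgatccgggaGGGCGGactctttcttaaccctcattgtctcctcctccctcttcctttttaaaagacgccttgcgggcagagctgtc

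*SHISA2* carried the letters TATAA 31 bases before its start, which 18.9% of 35116 promoter entries hold within 250 bases upstream on either strand. *SHISA3* carried no TATAA in that window but had GGGCGG, a GC box, at 188 and 77 bases before its start, and *SHISA2* had 1 GC box at 165 bases on the opposite strand. GC boxes were present in 42.6% of entries. Among the other motifs searched on both strands, CCAAT (32% of entries), TGACTCA (4.2%), TGACGTCA (1.65%), GGAATG (11.9%), GCGGGGGCG (4.72%) and CTTTGAT (2.26%), none was found in the windows of *SHISA2* and *SHISA3*. The GC content of the 250 bases was 67.6% for *SHISA2* and 64.8% for *SHISA3*, against a median of 58% over all entries. *SHISA5* (chr3:48467798-48504826, minus strand, 19 transcripts) had a GC box before both of its 2 starts and an AP-1 motif, TGACTCA, 96 bases before 1 of them. *SHISA4* (chr1:201888680-201892587, plus strand, 5 exons) likewise had a GC box before both of its starts, and CCAAT 68 bases before 1 of them on the opposite strand. Of the 5 members, 4 matched a promoter entry, all but *SHISA9* (chr16:12901598-13240416, plus strand). Each match is a description of the letters in the window and not evidence of binding.

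Libraries held 64571681 to 103518036 counts. The mesenchymal marker *VIM* was at 754 to 1063 CPM (counts of a gene scaled to the size of its library). Of the epithelial markers *KRT8* was at 981 to 1494 CPM, *KRT19* at 481 to 796 CPM, *KRT18* at 285 to 350 CPM and *EPCAM* at 16.9 to 19.4 CPM, while *CDH1* was at 3 to 12 counts. The hormone receptor genes *ESR1* and *PGR* were at 0 to 4 and 0 to 3 counts, and *ERBB2* was at 89.6 to 96.8 CPM. With viscosity in SC cells, 3 of the 4 tested epithelial and 2 of the 4 mesenchymal markers were called lower, with 9.69% called lower over all genes. Among them was *FN1* at 1230, 894 and 752 CPM in low-viscosity SC, high-viscosity SC and shTRPV4 cells. The other 2 mesenchymal markers, *CD44* and *ZEB1*, were not called (log2 fold change 0.12 and 0.022, edgeR adjusted p = 0.0546 and 0.803). The part of the epithelial and mesenchymal markers in the results was not tested. Leukocyte markers summed to 5.50 to 6.58 CPM in low-viscosity SC cells, 3.98 to 4.70 CPM in high-viscosity SC cells and 3.19 to 4.32 CPM in shTRPV4 cells. Nearly all of this was *CD14*, while *MS4A1* was at 0 and *CD3E* and *ITGAM* did not exceed 6 counts, and the part of these markers in the results was not tested. *TRPV4*, the cation channel targeted by the hairpin, had 40, 28 and 54 counts in low-viscosity SC cells and 64, 45 and 24 counts in high-viscosity SC cells, but 7, 1 and 13 counts in shTRPV4 cells. Its level was lower in shTRPV4 than in high-viscosity SC cells in all 3 libraries (log2 fold change of SC over shTRPV4 2.51, standard error (SE) 0.49, edgeR adjusted p = 0.00219).

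Levels of the 5 members differed widely within the line. As CPM per kilobase of exon (RPKM, union of all exons of a gene), *SHISA5* was at 46.1 ± 0.103 (SD, n = 3) in low-viscosity SC cells, *SHISA4* at 9.17 ± 0.908, *SHISA2* at 3.84 ± 0.261 and *SHISA3* at 2.36 ± 0.0968. The order among these 4 was the same in each of the 3 low-viscosity SC libraries. In high-viscosity SC cells, *SHISA2* at 7.56 ± 1.33 RPKM overlapped *SHISA4* at 7.72 ± 0.1001 RPKM, so these neighbours in the order did not differ beyond their spread. With the length of the canonical transcript in place of the union of exons, *SHISA4* was at 10.3 ± 0.134 RPKM in these samples and above *SHISA2* in all 3 libraries. In shTRPV4 cells, *SHISA2* at 8.67 ± 3.15 RPKM overlapped *SHISA4* at 6.85 ± 0.606 RPKM, and *SHISA3* was at 0.384 ± 0.0584 RPKM.

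*SHISA9* was barely detected, with 2, 1 and 5 counts in low-viscosity SC cells, 1, 6 and 1 counts in high-viscosity SC cells and 1, 2 and 4 counts in shTRPV4 cells. No fold change was computed at this depth, where the upper limit that a count of 0 allows (3 counts) corresponds to at most 0.0468 CPM in a library. It is also the only member that shares exon bases with another gene (97 bases, with an antisense long non-coding RNA), and whether HTSeq used strand is not given in the sources used here. The related genes *SHISA6*, *SHISA7*, *SHISA8*, *SHISAL2A* and *SHISAL2B* had 0 to 2 counts in every library. *SHISAL1*, a SHISA-like gene, had 45, 37 and 52 counts in low-viscosity SC cells, 53, 31 and 35 counts in high-viscosity SC cells and 16, 27 and 27 counts in shTRPV4 cells.

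**Figure D1:**
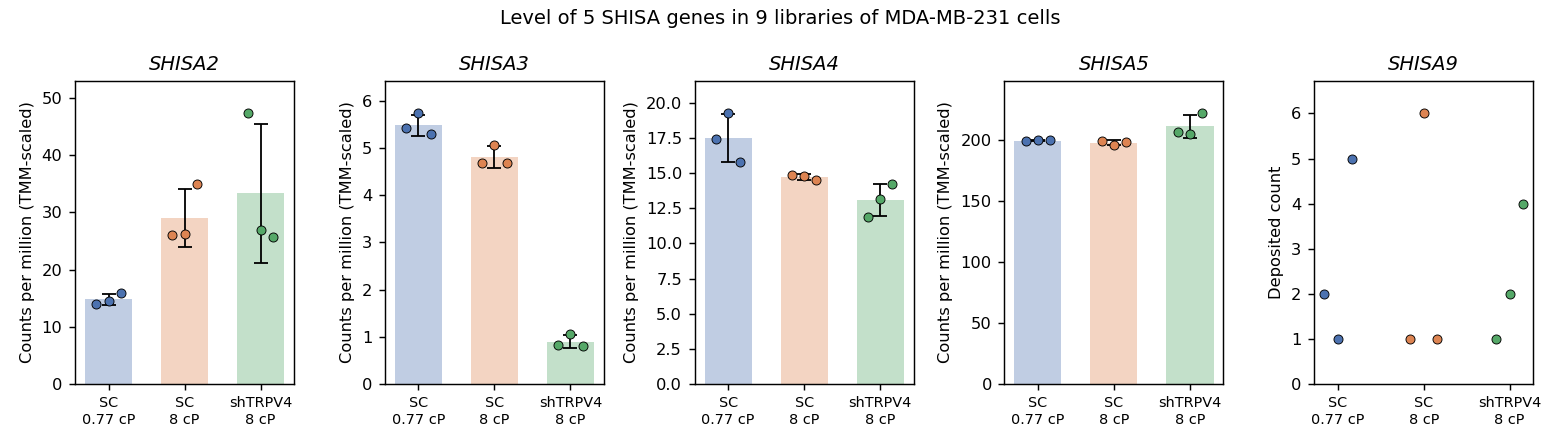
Level of the 5 SHISA genes in the 9 libraries, in TMM-scaled CPM on linear axes that start at 0 (deposited counts for SHISA9). Points are samples, bars are group means and error bars are 1 SD (n = 3). SHISA2 is higher in both 8 cP groups, SHISA3 drops to 0.891 CPM in shTRPV4 cells, and SHISA5 stays near 200 CPM.

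The first comparison asked what 8 cP did in SC cells. In bulk RNA, fewer cells with a transcript and less of it per cell cannot be told apart. *SHISA2* was at 13.9, 14.5 and 15.9 CPM at 0.77 cP and at 26.1, 26.2 and 34.96 CPM at 8 cP. The lowest sample at 8 cP was above the highest at 0.77 cP, with means of 14.8 ± 1.00 and 29.1 ± 5.10 CPM (SD, n = 3 each), or 1.97 times as much (log2 fold change 0.98, SE 0.18). Ordered from the highest log2 fold change down, *SHISA2* stood 106th of 18264 genes, and 0.98 lies above the 99th percentile of all genes (0.79). The rank is a description, since *SHISA2* was taken to be picked for its level at 8 cP.

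*SHISA3* was at 5.43, 5.74 and 5.30 CPM in low-viscosity SC cells and at 4.68, 5.07 and 4.68 CPM at 8 cP. The 8 cP samples were all lower, but by a small margin (log2 fold change -0.19, SE 0.099), and it stood 7605th of 18264 genes by the size of its difference. The members known for receptor retention were thus described at different sizes, with *SHISA2* far from 0 and *SHISA3* within the bulk of all genes.

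*SHISA4* was at 17.5, 19.3 and 15.8 CPM in low-viscosity SC cells and at 14.9, 14.8 and 14.5 CPM at 8 cP. All 8 cP samples were below all 0.77 cP samples, and the difference passed the threshold by a narrow margin (log2 fold change -0.25, SE 0.079, edgeR adjusted p = 0.0420). The call was lost without any 1 of 6 libraries: SC 0.77 cP replicate 1 or 2 (adjusted p = 0.126 and 0.210), SC 8 cP replicate 1, 2 or 3 (0.0940, 0.102 and 0.140) or shTRPV4 replicate 2 (0.0597), within a range of 0.0128 to 0.210 over all alternatives. *SHISA5*, at 199 to 200 CPM at 0.77 cP and 196 to 200 CPM at 8 cP, differed by -0.012 on the log2 scale (SE 0.042, edgeR adjusted p = 0.872) with a 95% interval of -0.10 to 0.078. Of these 2 tested members, 1 was called, while 19.3% of the 18264 genes were called in this comparison.

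**Figure D2:**
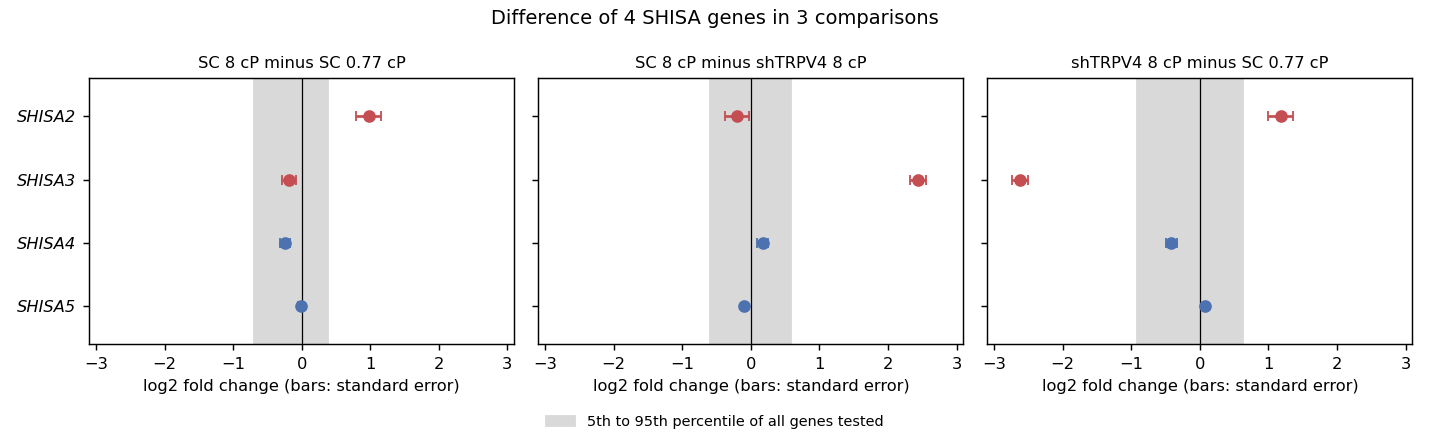
Log2 fold change of 4 SHISA genes in the 3 comparisons; points are estimates, bars are 1 SE, and the grey band spans the 5th to 95th percentile of all 18264 genes tested. SHISA2 (0.98 and 1.18) and SHISA3 (2.44 and -2.63) lie outside the band in the comparisons with these values, whereas SHISA4 and SHISA5 lie inside it throughout.

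The second comparison held viscosity at 8 cP and set SC against shTRPV4 cells. *SHISA3* was at 4.68, 5.07 and 4.68 CPM in SC cells and at 0.819, 1.05 and 0.807 CPM in shTRPV4 cells, from 425 to 490 counts against 73 to 82. The groups were far apart, with means of 4.81 ± 0.226 and 0.891 ± 0.136 CPM (SD, n = 3 each), and SC cells held 5.42 times as much (log2 fold change 2.44, SE 0.12). *SHISA3* stood 26th of 18264 genes by its excess in SC cells, above the 99th percentile of 1.27. This rank is a description, since *SHISA3* was taken to be picked for its level in shTRPV4 cells.

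For *SHISA2*, the shTRPV4 samples held 47.3, 27.0 and 25.7 CPM beside 26.1, 26.2 and 34.96 CPM in high-viscosity SC cells. These groups overlapped, and the sign of the difference rested on shTRPV4 replicate 1: the log2 fold change of SC over shTRPV4 was -0.20 (SE 0.17) with it and 0.14 without it. In that library 24 of 13108 genes exceeded both others of its group by more than 1.5 times (7 to 25 genes in the other 8 libraries) and 59 genes lay below both by as much (7 to 32 in the other 8), the highest number of the 9 libraries on the low side. Whether *SHISA2* differed between SC and shTRPV4 cells at 8 cP could not be told at this spread.

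*SHISA4* was at 11.9, 13.1 and 14.2 CPM in shTRPV4 cells, each below the 14.5 to 14.9 CPM of high-viscosity SC cells, but the difference did not pass the test (log2 fold change 0.17, SE 0.080, edgeR adjusted p = 0.153, 95% interval 0.00062 to 0.34 before adjustment). *SHISA5* was at 207, 205 and 222 CPM in shTRPV4 cells, each above high-viscosity SC cells, and did not pass either (log2 fold change -0.093, SE 0.042, edgeR adjusted p = 0.140, 95% interval -0.18 to -0.0033 before adjustment). Hence 0 of these 2 members were called by edgeR or by DESeq2, both had an unadjusted edgeR p below 0.05 (0.0493 and 0.0431), and 20% of all genes were called.

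The third comparison set shTRPV4 cells against low-viscosity SC cells, which differ in hairpin and viscosity. *SHISA2* was higher in all 3 shTRPV4 samples (log2 fold change 1.18, SE 0.18, and 0.83 without shTRPV4 replicate 1), and *SHISA3* was lower in all 3 (-2.63, SE 0.12, or 0.162 times the level). *SHISA4* fell from 17.5 ± 1.73 to 13.1 ± 1.16 CPM (SD, n = 3 each, log2 fold change -0.42, SE 0.080, edgeR adjusted p = 0.000629) without overlap of the groups. *SHISA5* differed by 0.081 on the log2 scale (SE 0.042, edgeR adjusted p = 0.140, 95% interval -0.0090 to 0.17). In this comparison 1 of the 2 tested members was called, against 42.4% of all genes. *SHISAL1* was lower (log2 fold change -0.93, SE 0.31, edgeR adjusted p = 0.0242), a call that was lost without SC 0.77 cP replicate 2 (adjusted p = 0.0715) or shTRPV4 replicate 1 (0.105).

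Per length, the level of *SHISA2* was 1.63 ± 0.156 times that of *SHISA3* (SD, n = 3) in low-viscosity SC cells, 3.66 ± 0.743 times in high-viscosity SC cells and 23.2 ± 10.3 times in shTRPV4 cells. In single libraries this ratio of RPKM values was 1.53 to 1.81, 3.12 to 4.51 and 15.5 to 34.9, without overlap of the groups. The ratio is built from the members taken to be picked for these differences, so the separation of the groups is a description. The step at 8 cP in SC cells came with the level of *SHISA2*, and the step in shTRPV4 cells with that of *SHISA3*.

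The chromosomal surroundings offered measures on genes outside the family, in the same libraries. Both *SHISA2* and *SHISA3* lie beside a gene of the ATP8A family, phospholipid flippases that move lipids between the leaflets of a membrane: *ATP8A2* lies 18745 bases from *SHISA2* and *ATP8A1* lies 5885 bases from *SHISA3*, each on the opposite strand and with no shared exon bases. *ATP8A1* was at 7.40, 7.59 and 4.77 CPM in low-viscosity SC cells, at 5.85, 5.27 and 4.65 CPM in high-viscosity SC cells and at 2.29, 3.07 and 3.49 CPM in shTRPV4 cells.

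All shTRPV4 samples had less *ATP8A1* than any SC sample, as was described for *SHISA3*. The log2 fold change of SC over shTRPV4 at 8 cP was 0.84 (SE 0.17, edgeR adjusted p = 0.00320), and that of shTRPV4 cells over low-viscosity SC cells was -1.15 (SE 0.17, adjusted p = 7.86e-05). Both calls held without any single library. In SC cells alone, 8 cP against 0.77 cP gave -0.32 (SE 0.17, adjusted p = 0.196), or -0.50 (adjusted p = 0.0165) without SC 0.77 cP replicate 3 and -0.31 (adjusted p = 0.0302) without the filter on low counts. *BEND4*, the neighbour on the other side of *SHISA3*, had 0 to 9 counts and was not tested.

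*ATP8A2* had mean levels of 1.85 ± 0.0892, 2.18 ± 0.0982 and 2.06 ± 0.515 CPM (SD, n = 3) in low-viscosity SC, high-viscosity SC and shTRPV4 cells, and its difference with viscosity did not pass the test (log2 fold change 0.24, SE 0.16, edgeR adjusted p = 0.316). In shTRPV4 cells it was highest in replicate 1, the library with the highest *SHISA2*. *RNF6*, a ubiquitin ligase gene 80098 bases from *SHISA2* on its other side, differed by 0.14 on the log2 scale with viscosity (SE 0.048, adjusted p = 0.0603, or 0.0387 with DESeq2 and 0.0453 and 0.0473 without SC 8 cP replicate 2 or shTRPV4 replicate 1). The difference described for *SHISA2* in SC cells was thus not matched in size by either neighbour.

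Beside *SHISA5*, *PFKFB4*, which encodes a regulator of glycolysis, fell with viscosity in SC cells (log2 fold change -0.46, SE 0.088, edgeR adjusted p = 0.00316) and was 0.76 higher in SC than in shTRPV4 cells on the log2 scale (SE 0.090, adjusted p = 3.23e-05), while *SHISA5* itself passed neither test. *TREX1*, 152 bases away on the opposite strand, was listed at 0 in all libraries. *IPO9*, an importin gene beside *SHISA4*, rose with viscosity (log2 fold change 0.24, SE 0.056, edgeR adjusted p = 0.00970, lost without SC 8 cP replicate 3 at 0.0526), while *SHISA4* was lower. Of 10 neighbouring protein-coding genes 7 were tested, and 2, 3 and 5 of them were called with viscosity, with the hairpin and with both, beside 19.3%, 20% and 42.4% of all genes.

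**Figure D3:**
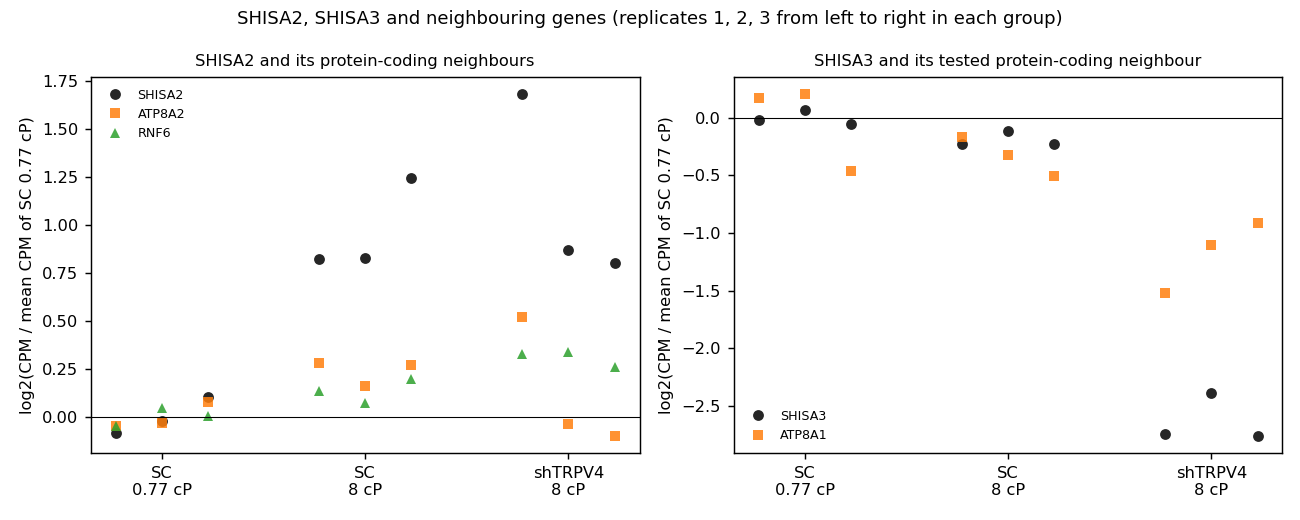
Log2 of the CPM in each library over the mean CPM of low-viscosity SC cells, for SHISA2 with ATP8A2 and RNF6 (left) and for SHISA3 with ATP8A1 (right). SHISA2 stands above both neighbours in all 8 cP libraries, whereas ATP8A1 is low in the same 3 shTRPV4 libraries as SHISA3, though by less than SHISA3.

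Genes whose pattern was nearest to each leading member were found by the root mean square difference of log2 CPM over the 9 libraries, each gene centred on its own mean, among 13096 genes with at least 1 CPM on average. These genes are picked for their pattern, so their levels are a description, and they share libraries with the members. Nearest to *SHISA2* were *OR7E22P* (an olfactory receptor pseudogene, difference 0.160 log2 units), ENSG00000276672 (0.162), *F2RL3* (0.168), *CYP24A1* (0.211) and *LHX4* (0.221), where the median gene differed by 0.566.

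*F2RL3*, which encodes the thrombin receptor PAR4, had means of 1.23, 2.09 and 2.38 CPM in low-viscosity SC, high-viscosity SC and shTRPV4 cells. *CYP24A1*, the enzyme that inactivates vitamin D, had 2.50, 3.81 and 5.07 CPM, and *LHX4*, a homeobox transcription factor gene, had 1.48, 2.43 and 2.89 CPM. Like *SHISA2*, these genes were about as high in shTRPV4 cells as in high-viscosity SC cells or higher.

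Nearest to *SHISA3* were ENSG00000227706 (0.138 log2 units), *ARHGAP30* (0.236), *EDA* (0.262), *SIRPB1* (0.316) and *SPOCK3* (0.369), where the median gene differed by 1.19. *EDA*, the ectodysplasin ligand gene, had means of 1.77, 1.51 and 0.326 CPM in low-viscosity SC, high-viscosity SC and shTRPV4 cells, and *SPOCK3*, a secreted proteoglycan gene, had 1.64, 1.66 and 0.477 CPM.

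**Figure D4:**
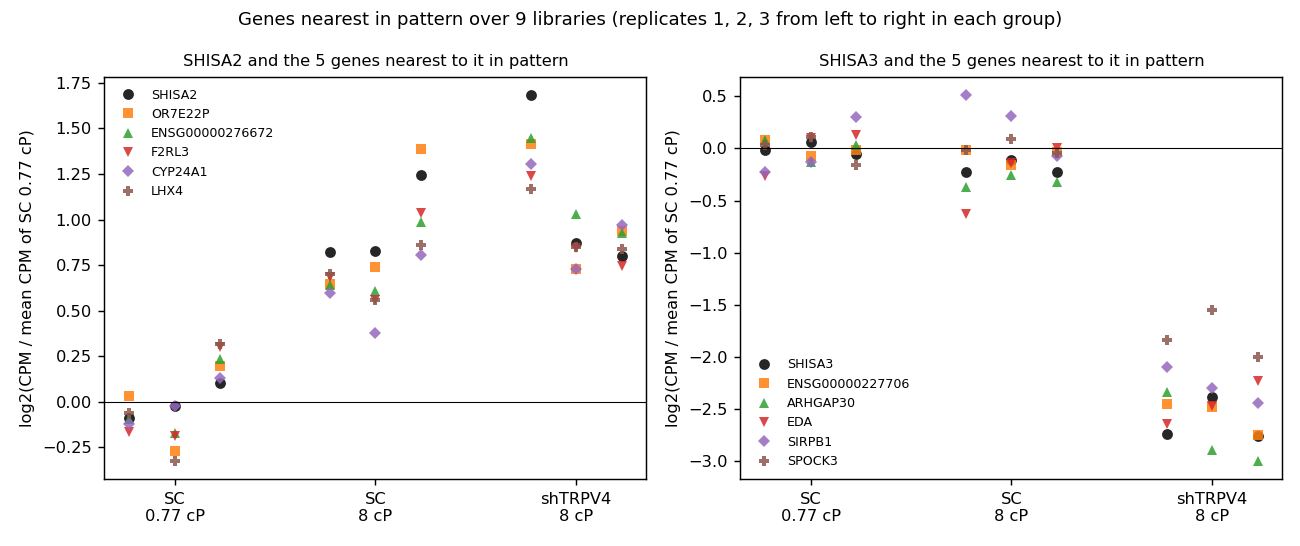
Log2 of the CPM in each library over the mean CPM of low-viscosity SC cells, for SHISA2 (left) and SHISA3 (right) with the 5 genes nearest to each in pattern. On the left all 6 genes are higher at 8 cP and highest in shTRPV4 replicate 1; on the right all 6 lie lower in each of the 3 shTRPV4 libraries than in any SC library.

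The receptors that SHISA2 and SHISA3 are known to retain were examined next, from lists written with earlier results of these data known. Of 15 Frizzled and Wnt receptor genes 13 were tested, and in high-viscosity SC cells against 0.77 cP 5 were called higher and 1 lower (46.2% called, with 19.3% over all genes; median log2 fold change 0.10, with -0.0065 over all genes). *FZD7* rose from 117 to 155 CPM (log2 fold change 0.41, edgeR adjusted p = 2.59e-05), *ROR1* from 57.5 to 73.1 CPM (0.35, adjusted p = 0.00289) and *FZD2* from 65.2 to 75.8 CPM (0.22, adjusted p = 0.00362). The direction of *FZD7*, *ROR1* and *FZD2* with viscosity was the same as that described for *SHISA2*, at a smaller size. The gene called lower was *FZD8* (log2 fold change -0.24, adjusted p = 0.0282), a call lost without any SC library but SC 8 cP replicate 1 (adjusted p = 0.0619 to 0.125).

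At 8 cP, 4 receptor genes were higher and 1 lower in SC than in shTRPV4 cells (38.5% called, with 20% over all genes; median -0.020, with -0.00064 over all genes). *FZD8* was at 12.2 CPM in SC and 5.32 CPM in shTRPV4 cells (log2 fold change 1.20, SE 0.075, edgeR adjusted p = 5.33e-08), *FZD4* at 9.05 and 6.85 CPM (0.40, adjusted p = 0.000772) and the co-receptor *LRP5* at 323 and 277 CPM (0.22, adjusted p = 0.00512). *FZD8* was the receptor gene with the smallest p in this comparison and, as described for *SHISA3*, was low in shTRPV4 cells. The count of lower genes dropped to 0 without SC 0.77 cP replicate 2, SC 8 cP replicate 1 or 2 or shTRPV4 replicate 1 or 2, and was 2 with DESeq2. In shTRPV4 cells against low-viscosity SC cells, 4 receptor genes were higher and 4 lower (61.5% called, with 42.4% over all genes).

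Wnt ligand genes were sparse, with 9 of 19 tested. With viscosity in SC cells 1 of the 9 was called (11.1%, with 19.3% over all genes), *WNT7B* (log2 fold change 0.23, edgeR adjusted p = 0.0370). DESeq2 called 2. Among single libraries, the edgeR call was lost without SC 0.77 cP replicate 1 (adjusted p = 0.155) or 2 (0.0577). It was also lost without SC 8 cP replicate 1 (0.0583) or 3 (0.1299). At 8 cP, 1 ligand gene was higher and 3 lower in SC than in shTRPV4 cells (44.4% called, with 20% over all genes), among them *WNT10B* at 3.16 and 4.44 CPM (-0.49, adjusted p = 0.00433), *WNT9A* at 26.0 and 22.3 CPM (0.22, adjusted p = 0.00707) and *WNT10A*, at 2 to 8 counts in SC and 18 to 44 counts in shTRPV4 cells (adjusted p = 0.00106).

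Genes that beta-catenin induces as feedback were tested for 9 of 13. With viscosity in SC cells 1 of 9 was called higher (11.1%, with 19.3% over all genes, and 0 to 4 without single libraries). This was *LEF1* (log2 fold change 0.53, edgeR adjusted p = 0.0204). Its adjusted p was 0.0677 to 0.0999 without SC 0.77 cP replicate 1 or 2 or SC 8 cP replicate 1 or 3. Without the filter on low counts, in the fit to 6 samples and without shTRPV4 replicate 1, 1 gene of the list was called lower. At 8 cP, 2 of 9 were called (22.2%, with 20% over all genes). *DKK1*, a secreted Wnt inhibitor, and *ZNRF3*, which removes Frizzled receptors from the membrane, were lower in SC than in shTRPV4 cells. Their log2 fold changes were -0.41 and -0.34 (edgeR adjusted p = 0.00280 and 0.00680). In shTRPV4 cells against low-viscosity SC cells, 6 were called, all higher (66.7%, with 42.4% over all genes; median log2 fold change 0.24, with -0.011 over all genes), among them *LEF1* at 0.87 (adjusted p = 0.000188) and *TCF7* at 0.90 (adjusted p = 0.000824). The 3 tested genes not called had negative log2 fold changes. These were *AXIN2* at -0.31 (edgeR adjusted p = 0.0925), *RNF43* at -0.27 (0.0594) and *LGR5* at -0.054 (0.944). Under upper quartile scaling, and without SC 0.77 cP replicate 2 or shTRPV4 replicate 3, 1 gene of the list was called lower. *SHISA3* was described as lowest in these same shTRPV4 libraries, and a link between the levels was not tested.

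FGF receptor genes were tested for 4 of 7. *FGFR1* was at 174, 193 and 198 CPM in low-viscosity SC, high-viscosity SC and shTRPV4 cells, and *FGFRL1*, a decoy receptor gene, was higher in SC than in shTRPV4 cells (130 and 109 CPM, log2 fold change 0.25, edgeR adjusted p = 0.00127). *FGFR1* was called with viscosity (0.15, adjusted p = 0.0341), a call lost without SC 0.77 cP replicate 1 or 2, SC 8 cP replicate 1 or 3 or shTRPV4 replicate 2 (adjusted p = 0.0502 to 0.131). In SC cells the receptor genes thus moved little beside *SHISA2*.

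Genes induced by FGF and ERK signalling were all tested (10 of 10). At 8 cP, 6 were called, all higher in SC than in shTRPV4 cells (60%, with 20% over all genes; median log2 fold change 0.20, with -0.00064 over all genes). *SPRY4*, a feedback inhibitor of receptor signalling, was at 150, 112 and 72.1 CPM in low-viscosity SC, high-viscosity SC and shTRPV4 cells (SC over shTRPV4 at 8 cP 0.64, edgeR adjusted p = 1.64e-07), *DUSP6*, an ERK phosphatase, at 251, 218 and 147 CPM (0.57, adjusted p = 8.55e-06) and *SPRY1* at 26.9, 31.2 and 20.1 CPM (0.64, adjusted p = 1.80e-05).

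With viscosity in SC cells, 3 of these 10 genes were lower and 1 higher (40% called, with 19.3% over all genes). The median log2 fold change of the list was 0.026, with -0.0065 over all genes. *SPRY4* fell (log2 fold change -0.42, adjusted p = 1.23e-05) and kept its call without any single library, whereas the calls of *SPRY2*, *DUSP6* and *SPRY1* did not. That of *SPRY2* was lost without SC 0.77 cP replicate 2 or SC 8 cP replicate 2 or 3 (adjusted p = 0.0843 to 0.173), that of *DUSP6* without any SC library but SC 0.77 cP replicate 3 (0.0539 to 0.171) and that of *SPRY1* without any SC library but SC 0.77 cP replicate 1 (0.0634 to 0.121) and also under upper quartile scaling (0.0572). Lower genes numbered 1 without SC 0.77 cP replicate 2 or SC 8 cP replicate 2 or 3. Against low-viscosity SC cells, 6 were called, all lower in shTRPV4 cells (60%, with 42.4% over all genes).

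SHISA5 belongs to the p53 response, and MDA-MB-231 cells carry a mutant p53. Of 18 p53 target genes, all tested, 6 were lower and 1 higher with viscosity in SC cells (38.9% called, with 19.3% over all genes; median log2 fold change -0.15, with -0.0065 over all genes), with 3 lower without SC 8 cP replicate 3 and 2 higher without SC 0.77 cP replicate 3. *CDKN1A*, the inhibitor of cell cycle kinases, fell from 216 to 155 CPM (-0.48, edgeR adjusted p = 2.36e-06), *GDF15* from 12.3 to 6.27 CPM (-0.97, adjusted p = 0.000674), and *ZMAT3* rose from 12.2 to 15.7 CPM (0.37, adjusted p = 0.00258). *SHISA5* was at 198 CPM beside 200 CPM and did not pass the test.

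At 8 cP, 8 of the 18 were called, all higher in SC than in shTRPV4 cells in the fit to all samples (44.4%, with 20% over all genes; median 0.15), and 5 were higher without SC 8 cP replicate 1 or 2. With DESeq2, without the filter, in the fit to 6 samples and without SC 0.77 cP replicate 3 or SC 8 cP replicate 3, 1 p53 target gene was called lower. *CDKN1A* (log2 fold change 0.41, edgeR adjusted p = 8.95e-06), *PMAIP1*, a cell death gene (0.59, adjusted p = 5.46e-05), and *CCNG1* (0.35, adjusted p = 0.00119) had the smallest p. *SHISA5* had the opposite sign (-0.093) and was not called. Against low-viscosity SC cells, 10 were lower and 3 higher in shTRPV4 cells (72.2% called, with 42.4% over all genes).

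Among the partners of SHISA9, the AMPA receptor subunit genes *GRIA1*, *GRIA2*, *GRIA3* and *GRIA4* had 0 to 10 counts in any library and were not tested. Of 13 subunit and auxiliary genes 5 were tested, of which *CNIH3*, which also serves receptor export, was the most abundant at 28.5, 23.2 and 21.5 CPM in low-viscosity SC, high-viscosity SC and shTRPV4 cells. *CACNG7* was at 2.99 CPM in SC and 7.74 CPM in shTRPV4 cells (log2 fold change -1.37, SE 0.11, edgeR adjusted p = 8.25e-07), and *CACNG8* at 0.177 and 0.790 CPM (-2.17, SE 0.39, adjusted p = 0.00107). *SHISA9* stayed at 1 to 6 counts in all groups.

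**Figure D5:**
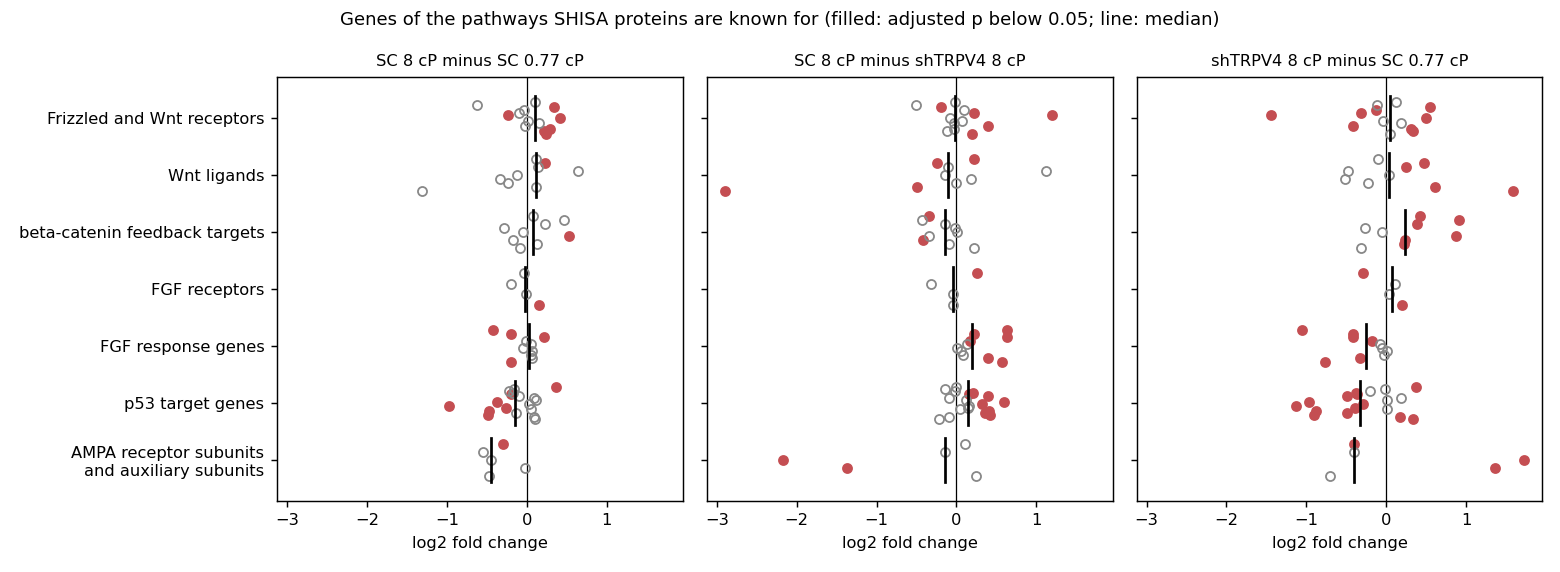
Log2 fold change of the tested genes of 7 lists in the 3 comparisons; each point is a gene, filled points have an edgeR adjusted p below 0.05, open points do not, and the vertical line is the median of the list. In SC against shTRPV4 cells the called FGF response genes (6) and p53 target genes (8) all lie to the right of 0. The called beta-catenin feedback targets (2 of 9 tested, 22.2%, with 20% over all genes) lie to the left.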

How the data were processed

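RNA of 9 samples was sequenced by the authors as stranded poly(A) libraries with paired 100 bp reads. The authors aligned reads with HISAT2 2.2.1 to GRCh38.p13, counted them per Ensembl 104 gene with HTSeq 0.13.5, and deposited raw counts per gene. The strand option of the counting is not given in the sources used here. Of 60664 genes listed, 60463 matched a symbol. Members and gene lists were chosen with earlier results of these data known. From the counts, TMM scaling, filterByExpr (minimum count 10) and edgeR 4.0.16 (quasi-likelihood, R 4.3.3) were run on all 9 samples with 1 coefficient per group, and p-values were adjusted by Benjamini-Hochberg over 18264 genes (threshold 0.05). The common biological coefficient of variation was 0.0633. CPM are TMM-scaled, and RPKM use GENCODE exon lengths. DESeq2 1.42.0, upper quartile scaling, other filters, fewer samples and a replicate block were alternatives. The test was checked on counts simulated with the spread fitted to these data, which takes the model of the test as given and cannot check it. Floors of 3 counts cover counting error only. Besides the members, related SHISA genes and *TRPV4*, genes were named as the nearest protein-coding neighbours, the 5 nearest in pattern, and up to 3 per list by mean count and up to 3 by adjusted p. Further genes of a list were added where their direction differed from that of the genes named.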

Additional observations from a re-analysis of the deposited data

How the results depend on the processing

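*SHISA2*, *SHISA3*, *SHISA4* and *SHISA5* kept direction and, where tested, side of the threshold under DESeq2, upper quartile scaling, both other filters and fits to 6 samples. *SHISA9* gave no value under any of them. Leaving out single libraries moved the log2 fold change of *SHISA2* for SC over shTRPV4 cells at 8 cP between -0.36 and 0.14, *SHISA4* with viscosity in SC cells between -0.31 and -0.17 and *SHISA5* there between -0.011 and 0.0059, and *ATP8A2* in shTRPV4 against low-viscosity SC cells between -0.073 and 0.27. Calls numbered 3518, 3649 and 7752 in the 3 comparisons in report order. Without single libraries they ranged from 1409 to 4349 in the first and from 2179 to 3836 in the second. With a log2 fold change of at least 1 also required they numbered 257, 345 and 847.

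Replicate numbers came from the titles alone. Deviations from the group mean correlated at -0.055 to 0.090 between samples of the same number (9 pairs) and at -0.11 to 0.11 between others (18 pairs). Samples of the same number thus showed no greater likeness, and whether they were handled together cannot be told from these values. With a replicate block, *SHISA4* with viscosity was at -0.24 (edgeR adjusted p = 0.0540, 0.0128 to 0.210 over all alternatives), with 3475, 3607 and 7731 calls, and no other member changed its call. The block also ended the viscosity calls of *WNT7B* (adjusted p = 0.0543) and *SPRY1* (0.0572) and gave 1 p53 target gene lower in SC than in shTRPV4 cells. Of the other gene results named, 58 were repeated under these alternatives. Among them 819 of 866 repeats kept direction and call, 41 lost the call, 5 gained it and 1 reversed. The causes were not tested. Depth limits *SHISA9* and *TRPV4*, whose counts were low.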
